A study of Mus musculus with 4 samples.

Results

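The genes of the Wnt pathway were examined in cultured mouse alveolar type II cells, which line the air spaces of the lung and make its surfactant. The set holds 55 named genes of the 28096 gene identifiers in the tables, and all 55 were found by Entrez identifier. The genes were chosen by name for their role in Wnt signalling: 14 ligands, 2 genes of ligand release, 9 frizzled receptors, 5 other receptors, 5 R-spondin receptors and ligases, 6 secreted inhibitors, 10 cytosolic control genes and 4 DNA-binding factors.

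Polyadenylated RNA of 4 libraries with the genotype label KRasEtv wt was sequenced. The design text names 3 genotypes, KRaswt/d12;RosaCreERT2, the same with Etv5loxp/loxp, and the same with Etv4KO/KO and Etv5loxp/loxp; the labels do not state which of them KRasEtv wt stands for. The KRaswt/d12 allele and RosaCreERT2, a tamoxifen-dependent Cre at the broadly active Rosa locus, are thus shared by all 3. Cells were sorted from lung as EpCAM+, CD24-, CD45-, CD31- and Pdpn-, and were kept in matrigel in BEGM, a bronchial epithelial medium, for 4 days with 100 nM 4OHT, the active form of tamoxifen, and for 1 day without it. How completely Cre had acted was not measured here, the age of the mice is not given in the labels, and no untreated library or other genotype was analysed here. With a single group there is no contrast between conditions, so the levels of the genes, their order and their spread between libraries are described. The design text gives 4 mice for each genotype but the labels do not tie a library to a mouse, so p-values measure only the spread between these libraries, part of which may be technical. Libraries 1 to 4 are numbered in accession order.

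Libraries held 12133251 to 13591876 counted reads, of which mitochondrial genes took 20.3% to 40.3%. Levels are the authors' size-factor-adjusted RPKM (nRPKM), a read count scaled for library and gene length, so they can be set beside each other between genes. The chi-square of counts per degree of freedom was 39.0 to 113 between pairs of libraries, far above the sampling noise, and no library repeated another. All 12 markers of alveolar type II cells had a mean of at least 10 nRPKM, and Sftpc, the gene of surfactant protein C, had 10006 ± 3649 (SD, n = 4). Library 1 stood apart, with the lowest level of all 12 of these markers (summed 11468 nRPKM, against 18481 to 24310). Of 8 markers of alveolar type I cells, 7 also had a mean of at least 10 nRPKM, and Rtkn2 had 0.376. Among the 7 were Aqp5 (185 ± 15.6), Ager (156 ± 48.1) and Pdpn (21.1 ± 5.34), although cells had been sorted as Pdpn-. Library 3 stood apart in the sex-linked genes: Xist, made from the inactive X chromosome of females, had 66.3 nRPKM there against 0.255 to 0.784, and the Y-linked Eif2s3y had 0.243 against 14.6 to 23.2. The 4 club cell markers summed to 315.6, 1059, 149.7 and 279.7 nRPKM in libraries 1 to 4, mostly Scgb1a1 (239, 880, 93.0 and 188). The 6 markers of airway basal cells (Krt5, Krt14 and others) summed to 149, 103, 20.9 and 48.4 nRPKM in libraries 1 to 4. The 13 mesenchymal markers summed to 221, 65.4, 44.8 and 76.8 nRPKM in the same order, with Mgp as the main contributor (38.9 to 191) and Col1a1 (1.88 to 6.66), Col1a2 (1.49 to 4.70) and Dcn (0.962 to 14.2) present in every library. Of the 13, 5 had a mean of at least 1 nRPKM. None was at 0 in all libraries, but Tcf21 had at most 1 read and Lum at most 5 reads in a library. The 9 leukocyte markers summed to 67.7, 57.8, 25.8 and 16.5 nRPKM in libraries 1 to 4, although cells had been sorted as CD45-. Cd68 added the most (10.5 to 35.3), and 4 of the 9 had a mean of at least 1 nRPKM. In bulk RNA, fewer cells of a type and less RNA per cell cannot be told apart.

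Wnt ligands are secreted proteins that receive a lipid from the enzyme Porcn and are carried to the cell surface by Wls. At the receiving cell they bind frizzled receptors together with Lrp5 or Lrp6, and dishevelled proteins then restrain the complex of Apc, axin, Gsk3b and Csnk1a1 that marks beta-catenin for destruction. Beta-catenin that escapes this complex enters the nucleus and acts with TCF and LEF factors on targets, several of which (Axin2, Nkd1, Notum, Rnf43, Znrf3) damp the pathway again. In the lung, Wnt signals from fibroblasts are known to maintain a population of type II cells with progenitor behaviour that is marked by Axin2.

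Promoters of 3 genes that damp the pathway are shown because they lay at very different levels here: Nkd1 was well measured, Axin2 was low and Dkk1, a secreted inhibitor that is not among the 8 targets listed later, was near 0 (values below). The sequences are the 250 bases before the RefSeq start in GRCm38.p6, 5′ to 3′ on the gene's strand; capitals mark the core motifs of TCF and LEF factors that were searched, CTTTGA and CTTTGT, on both strands. The windows are chr8:88527383-88527632 (plus strand, Nkd1), chr11:108920099-108920348 (plus strand, Axin2) and chr19:30549497-30549746 (minus strand, Dkk1).
Nkd1: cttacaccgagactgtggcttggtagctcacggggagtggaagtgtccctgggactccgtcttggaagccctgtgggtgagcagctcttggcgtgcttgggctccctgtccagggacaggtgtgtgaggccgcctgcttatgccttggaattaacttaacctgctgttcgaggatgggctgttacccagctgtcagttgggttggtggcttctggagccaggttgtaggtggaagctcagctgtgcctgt
Axin2: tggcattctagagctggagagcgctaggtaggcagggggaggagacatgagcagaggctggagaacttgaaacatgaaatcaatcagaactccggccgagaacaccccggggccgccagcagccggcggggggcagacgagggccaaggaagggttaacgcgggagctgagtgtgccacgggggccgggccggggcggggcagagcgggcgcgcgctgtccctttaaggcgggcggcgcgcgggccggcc
Dkk1: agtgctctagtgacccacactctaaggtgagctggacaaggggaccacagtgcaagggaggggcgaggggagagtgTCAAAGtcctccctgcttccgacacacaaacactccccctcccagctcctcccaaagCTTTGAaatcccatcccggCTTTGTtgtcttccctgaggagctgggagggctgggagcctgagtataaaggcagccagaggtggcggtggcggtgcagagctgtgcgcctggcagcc
The Dkk1 window held 3 matches, which began 174, 117 and 98 bases before the start, and the Nkd1 and Axin2 windows held none. Of all 32851 promoter windows of this length, 27.6% held either motif, and so did 11 of the 47 windows of the 37 pathway genes with an entry (23.4%). Of the 8 targets 5 had an entry, and 1 of their 10 windows held a match. The Axin2 window had 69.2% G and C and 24 CG dinucleotides, against 58.4% and 6 for Nkd1 and 60.8% and 6 for Dkk1. No match says only that these letters are not in this window.

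Of the 55 genes, 26 (47.3%) had at least 1 nRPKM in all 4 libraries, against 38.8% of all genes in the tables. By reads, 38 genes (69.1%) had at least 10 in every library, against 47.2% of all genes. A further 15 had fewer than 10 reads in every library, and Notum and Wnt4 passed 10 reads in some libraries only. Among the 26, the median level was 6.56 nRPKM, close to the 6.54 of all 10888 genes that passed the same level. The pathway was filled unevenly by role, as the plot of levels by role shows: 2 of 14 ligands and none of 6 secreted inhibitors reached 1 nRPKM in all libraries, against 7 of 9 frizzled receptors and 8 of 10 cytosolic genes.

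**Figure D1:**
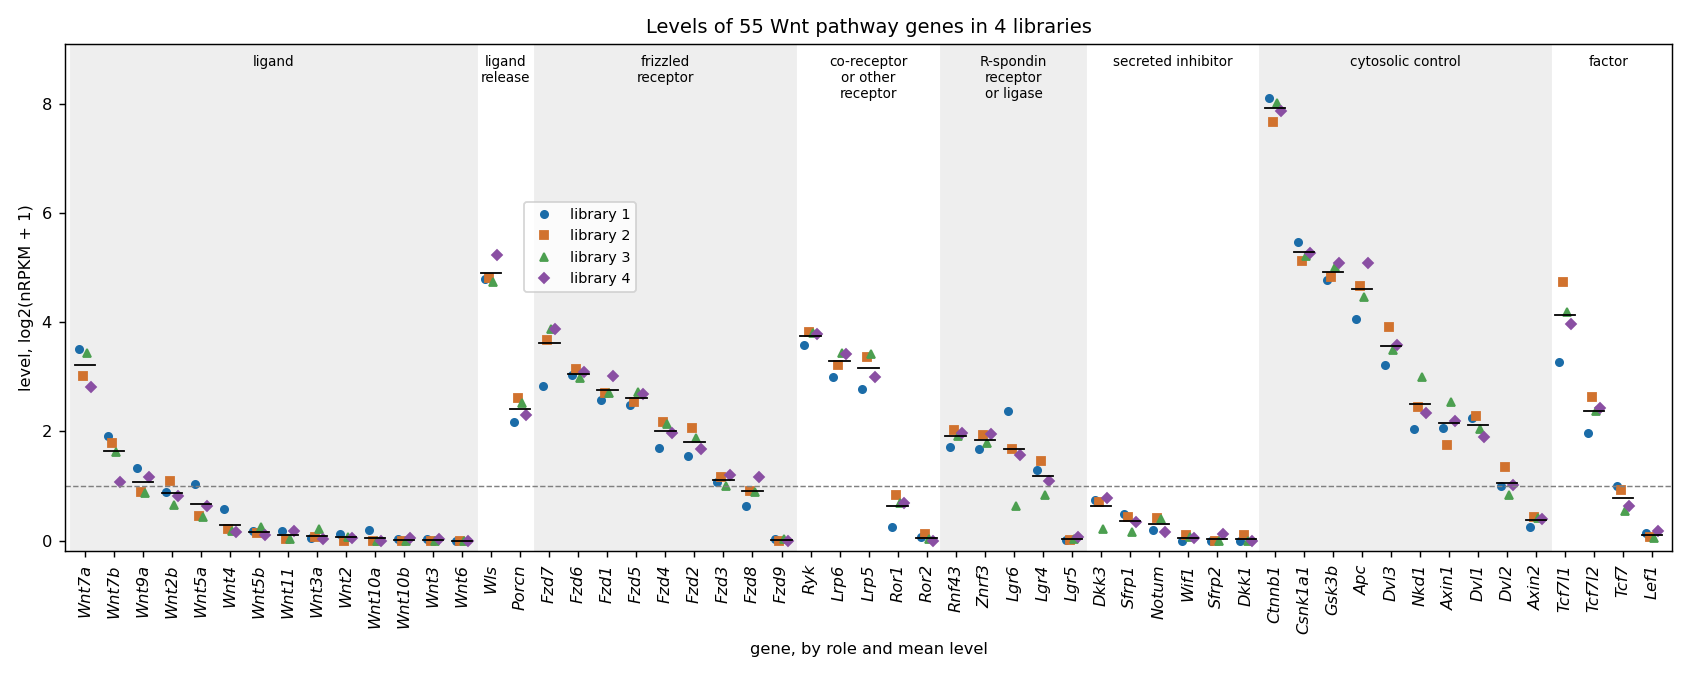
Levels of the 55 Wnt pathway genes as log2(nRPKM + 1), grouped by role and ordered by mean level within a role. Symbols are the 4 libraries, bars are the log2 of the mean nRPKM + 1, and the dashed line marks 1 nRPKM; Ctnnb1 stands highest, and most ligands and all secreted inhibitors lie at or below the line.

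Among the ligands, Wnt7a was the main transcript. Wnt7a, an epithelial Wnt best known from the limb and the reproductive tract, had 10.3, 7.04, 9.85 and 6.05 nRPKM in libraries 1 to 4 on 313 to 669 reads (mean 8.32 ± 2.10; SD, n = 4). Its relative Wnt7b, which is made by the epithelium of the developing lung, had 2.79, 2.44, 2.09 and 1.11 nRPKM (mean 2.11 ± 0.722). Wnt7a lay above Wnt7b in 4 of 4 libraries, by a level ratio of 2.89 to 5.44, and by 1.59 ± 0.26 in log2(nRPKM + 1) (exact permutation test by sign flips, two-sided, p = 0.13, which 4 libraries cannot go below; adjusted p = 0.205 over 23 neighbour pairs). Both ligands were lowest in library 4 and highest in library 1. Of the summed level of the 14 ligands, which was 17.6, 12.1, 14.2 and 10.1 nRPKM in libraries 1 to 4, Wnt7a made up 58.6%, 58.0%, 69.3% and 59.7%. Wnt7b added 11.0% to 20.1%, so these 2 paralogs together carried most of the ligand RNA.

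The other ligands were low. Wnt9a had 1.52, 0.849, 0.835 and 1.24 nRPKM, and lay under Wnt7b in 3 of 4 libraries, so these neighbours were not separated in every library. Wnt2b had 0.865, 1.13, 0.561 and 0.756 nRPKM in libraries 1 to 4 on 42 to 72 reads, and Wnt5a, a ligand of lung fibroblasts that often acts without beta-catenin, had 0.585 ± 0.327 on 29 to 94 reads (SD, n = 4). Wnt5a was higher in library 1 (1.05 nRPKM) than in libraries 2 to 4 (0.349 to 0.561). Wnt4 had 11 reads in library 1 and 2 or 3 in the others, and Wnt10a had 6 reads in library 1 and none in the others, so both rested on too few reads for a comparison. Wnt5b, Wnt11, Wnt3a, Wnt2, Wnt10b and Wnt3 had at most 9 reads in a library. For Wnt6 no read was counted in any library, which allows up to 0.221 to 0.247 CPM (3 counts per library; this covers counting error only).

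Both genes of ligand release were present. Wls, the carrier, had 26.7, 27.1, 25.8 and 36.7 nRPKM in libraries 1 to 4, and Porcn, the acyltransferase, had 3.52, 5.08, 4.71 and 3.95. Wls was thus higher than the summed ligands in each library, and exceeded Porcn by 5.33 to 9.29 times in level.

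Frizzled receptors were expressed as a mixture. The 9 genes summed to 28.6, 38.7, 39.6 and 41.3 nRPKM in libraries 1 to 4. Fzd7 had the highest mean, with 6.12, 11.8, 13.7 and 13.6 nRPKM (mean 11.3 ± 3.58; SD, n = 4), and made up 21.4%, 30.6%, 34.6% and 33.0% of the sum. Fzd6, a receptor known for planar polarity, had 7.20, 7.81, 6.84 and 7.53 nRPKM, and was above Fzd7 in library 1 only. Fzd6 was the most even of the 7 frizzled genes at 1 nRPKM or more in all 4 libraries, with its highest library at 1.14 times its lowest, whereas Fzd7 ranged over 2.24 times. Fzd1 (5.78 ± 0.946 nRPKM) and Fzd5 (5.10 ± 0.503) followed and changed places in library 3. Fzd4, Fzd2 and Fzd3 had 3.00 ± 0.575, 2.48 ± 0.550 and 1.17 ± 0.133 nRPKM in that order, which held in all 4 libraries. Fzd8 had 0.872 ± 0.281 nRPKM, and Fzd9 had at most 1 read in a library. Of the Fzd5 transcript, 16.6% of 50-base words also occur in another annotated gene, so its level is uncertain.

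**Figure D2:**
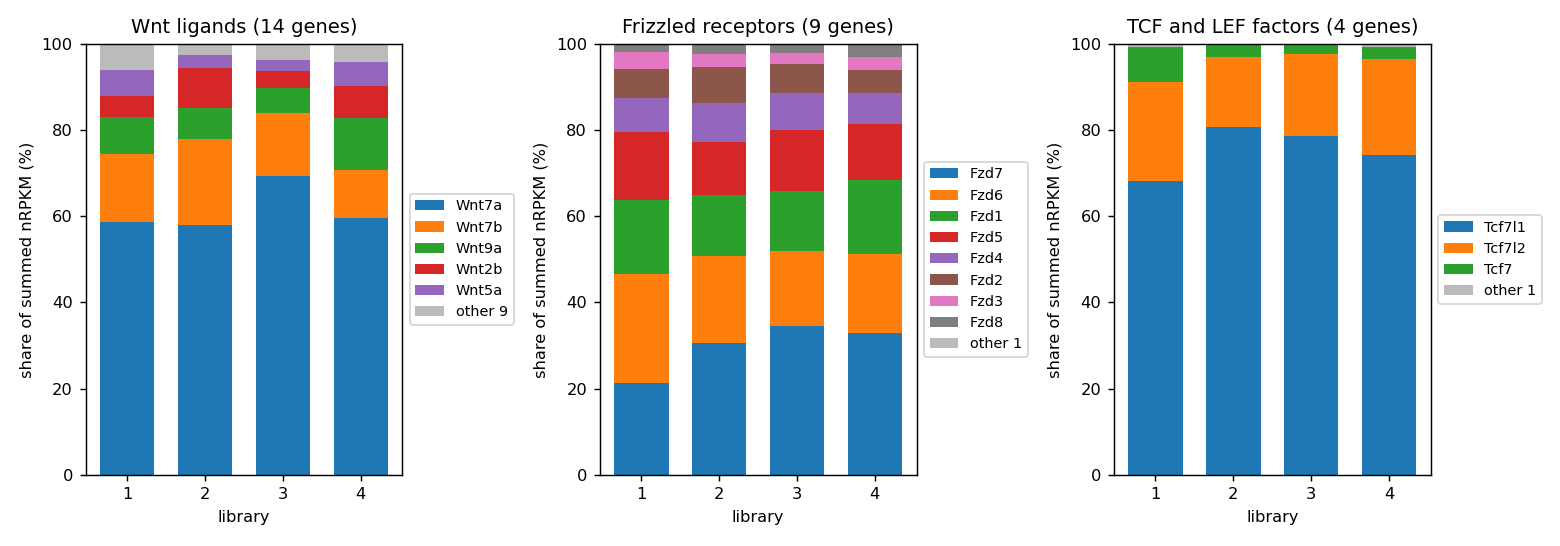
Share of the summed nRPKM of each family, in percent, that each gene took in libraries 1 to 4, for 14 ligands, 9 frizzled receptors and 4 TCF and LEF factors. Wnt7a takes 58.0% to 69.3% of the ligands and Tcf7l1 68.2% to 80.8% of the factors, while no frizzled gene takes more than 34.6%.

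The co-receptors Lrp5 and Lrp6 were near each other. Lrp6 had 7.00, 8.35, 9.87 and 9.70 nRPKM and Lrp5 had 5.84, 9.34, 9.64 and 7.02 in libraries 1 to 4. Lrp6 was the higher in 3 of 4 libraries, so these neighbours were not separated in every library. Their log2 difference was 0.13 ± 0.24 (two-sided exact permutation test, p = 0.375, adjusted p = 0.411). With 4 libraries this test cannot set any pair of neighbours apart. Ryk, a Wnt receptor with an inactive kinase domain, was higher than both in every library and very even, with 11.0, 13.1, 12.9 and 12.7 nRPKM. Receptors of the Ror family, which bind Wnt5a, were scarce: Ror1 had 0.194, 0.779, 0.620 and 0.606 nRPKM, and Ror2 had at most 6 reads in a library.

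The ligases Rnf43 and Znrf3, which remove frizzled receptors from the surface, had nearly the same level. Rnf43 had 2.26, 3.10, 2.79 and 2.95 nRPKM and Znrf3 had 2.19, 2.84, 2.47 and 2.89. Rnf43 lay above Znrf3 in 4 of 4 libraries, but by only 0.07 ± 0.05 in log2(nRPKM + 1) (two-sided exact permutation test, p = 0.13; adjusted p = 0.205). Of the R-spondin receptors that hold these ligases in check, Lgr5 was near 0, with 1 to 4 reads. Lgr4 had 1.44, 1.75, 0.793 and 1.14 nRPKM.

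Lgr6 was the most uneven of the genes with a mean of at least 1 nRPKM. It had 4.17, 2.19, 0.554 and 1.95 nRPKM in libraries 1 to 4, on 308, 141, 42 and 115 reads, a range of 7.53 times. The 95% Poisson interval of library 3 (0.399 to 0.748 nRPKM) lay below those of libraries 2 and 4 (1.84 to 2.58 and 1.61 to 2.34), and that of library 1 (3.72 to 4.66) lay above them. The spread was therefore larger than counting error, but Lgr6 did not pass the test across genes (adjusted p = 0.529, edgeR quasi-likelihood dispersion). Lgr6 was highest where the basal markers were highest (library 1) and lowest where they were lowest (library 3): Krt5 had 70.6, 37.9, 8.22 and 19.4 nRPKM and the basal factor gene Trp63 had 1.08, 0.707, 0.150 and 0.375. Of the 6 basal markers, 4 had a mean of at least 1 nRPKM and none was at 0. The 13 mesenchymal markers, mostly Mgp, were also highest in sum in library 1 and lowest in library 3. The same held for the 4 mesothelial markers, with 19.1, 9.49, 7.14 and 8.57 nRPKM in libraries 1 to 4. It also held for the 7 endothelial (0.870, 0.269, 0.238 and 0.611) and 5 ciliated markers (2.69, 1.8, 1.78 and 2.63). The part of these cells in the Lgr6 level was not tested.

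Secreted inhibitors were low as a group, and none of the 6 had a mean of 1 nRPKM. Dkk3 had 0.672, 0.638, 0.156 and 0.713 nRPKM in libraries 1 to 4, with 11 reads in library 3 and 38 to 46 in the others. Sfrp1, a soluble frizzled-like decoy, had 0.404, 0.348, 0.120 and 0.267 nRPKM, also lowest in library 3. Library 3 was also the lowest for 10 of 13 mesenchymal, all 6 basal and 3 of 4 club markers. The part of these cells in the Dkk3 and Sfrp1 levels was not tested. Notum, an enzyme that strips the lipid from Wnt ligands, had 0.227 ± 0.109 nRPKM on 4 to 13 reads; 31.7% of its 50-base words also occur in another gene, so this level is uncertain. Dkk1, Sfrp2 and Wif1 had at most 3 reads in a library.

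The cytosolic genes were the most abundant. Ctnnb1, the gene of beta-catenin, which also joins cadherins at cell contacts, had 274, 203, 258 and 234 nRPKM in libraries 1 to 4 (mean 242 ± 30.8; SD, n = 4). It was 5.97 to 7.11 times as high in level as Csnk1a1, the next gene, in every library (log2 difference 2.64 ± 0.11; two-sided exact permutation test, p = 0.13, adjusted p = 0.205). The Ctnnb1 transcript shares 18.6% of its 50-base words with another gene, mainly Ulk4, so its level is uncertain. The kinase genes Csnk1a1 and Gsk3b had 37.8 ± 3.98 and 29.5 ± 3.09 nRPKM, and the scaffold gene Apc had 15.6, 24.5, 21.0 and 33.0. Apc was the least even of the 3, with a range of 2.11 times, and the ratio of Ctnnb1 to Apc in level therefore ran from 7.10 in library 4 to 17.5 in library 1.

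Of the dishevelled genes, which relay the receptor signal, Dvl3 made up 63.5% to 74.6% of the family. It had 8.26, 14.0, 10.2 and 11.0 nRPKM, against 3.37 ± 0.539 for Dvl1 and 1.09 ± 0.319 for Dvl2, whose transcript shares 16.3% of its 50-base words with another gene. Axin1, the constitutive scaffold, had 3.18, 2.36, 4.83 and 3.56 nRPKM and could not be ordered against Dvl1 (higher in 2 of 4 libraries).

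The common targets lay at very different levels. The 8 targets among the 55 genes are Axin2, Nkd1, Notum, Lgr5, Rnf43, Znrf3, Lef1 and Tcf7. Of these 8, 3 (Nkd1, Rnf43 and Znrf3) had at least 1 nRPKM in all libraries, close to the 38.8% of all genes. By reads, 5 of the 8 had at least 10 in every library, against 47.2% of all genes. Axin2, the target most used as a readout of beta-catenin, had 0.184, 0.357, 0.325 and 0.317 nRPKM on 16, 27, 29 and 22 reads. Nkd1, which binds dishevelled, had 3.15, 4.46, 7.04 and 4.09 nRPKM on 286 to 657 reads, and was 12.5 to 21.6 times as high in level as Axin2. All 4 libraries of Nkd1 lay above all 4 of Axin2. Axin1 exceeded Axin2 by 6.60 to 17.3 times, so most axin RNA came from the gene that is not a target. Nkd1 peaked in library 3 and had its minimum in library 1, as did the summed level of the type II markers, to which Sftpc added the most. Of the 12 type II markers, 4 were highest in library 3, 6 in library 2 and 2 in library 4.

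Of the factors, Tcf7l1 was the main one. Tcf7l1, which acts mostly as a repressor, had 8.65, 25.7, 17.1 and 14.6 nRPKM in libraries 1 to 4 and made up 68.2%, 80.8%, 78.6% and 74.3% of the family's summed level. Tcf7l2 had 2.93, 5.16, 4.16 and 4.38 nRPKM. Tcf7l1 lay above Tcf7l2 in 4 of 4 libraries, by 1.69 ± 0.35 in log2(nRPKM + 1) (two-sided exact permutation test, p = 0.13; adjusted p = 0.205). Tcf7 and Lef1, the factors that are targets themselves, were low: Tcf7 had 1.01, 0.906, 0.448 and 0.548 nRPKM on 20 to 46 reads, and Lef1 had 2 to 5 reads. The Lef1 transcript shares 33.8% of its 50-base words with another gene, so its low count is uncertain. Both Tcf7l1 and Tcf7l2 were lowest in library 1 and highest in library 2, whereas Tcf7 was highest in library 1. All 4 club cell markers were also highest in library 2 and none was at 0, but 3 of them were lowest in library 3 and 1 in library 1. All 12 type II markers were lowest in library 1, with their sum highest in library 3 (24310 nRPKM). The part of either cell type in the Tcf7l1 and Tcf7l2 levels was not tested.

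Between libraries, no Wnt gene was called as more variable than the trend of all genes. Of the 38 pathway genes with enough reads for the test, none was called (adjusted p under 0.05, edgeR quasi-likelihood dispersion), against 0.0152% of the 13156 genes tested. Before adjustment, edgeR's p lay under 0.05 for 2 of them, Lgr6 and Tcf7l1 (adjusted p = 0.529 and 0.823), which is 5.26% of the 38 and near the 5.13% of all genes. With 4 libraries the edgeR test called only 2 genes in all and could miss large differences. Scgb3a2 and Dcn, with ranges of 23.9 and 14.7 times in nRPKM, were not called (adjusted p = 0.158 and 0.231, edgeR). The absence of a call therefore does not show that a gene was even. DESeq2 marked none of 54 pathway genes as a dispersion outlier, against 71 of all 20579 genes with a read. That share is too small for none of 54 to set the pathway genes apart. For the genes at 1 nRPKM or more in all libraries, the highest library exceeded the lowest by a median of 1.45 times for the 26 Wnt genes and by 1.55 times for all 10888 genes.

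**Figure D3:**
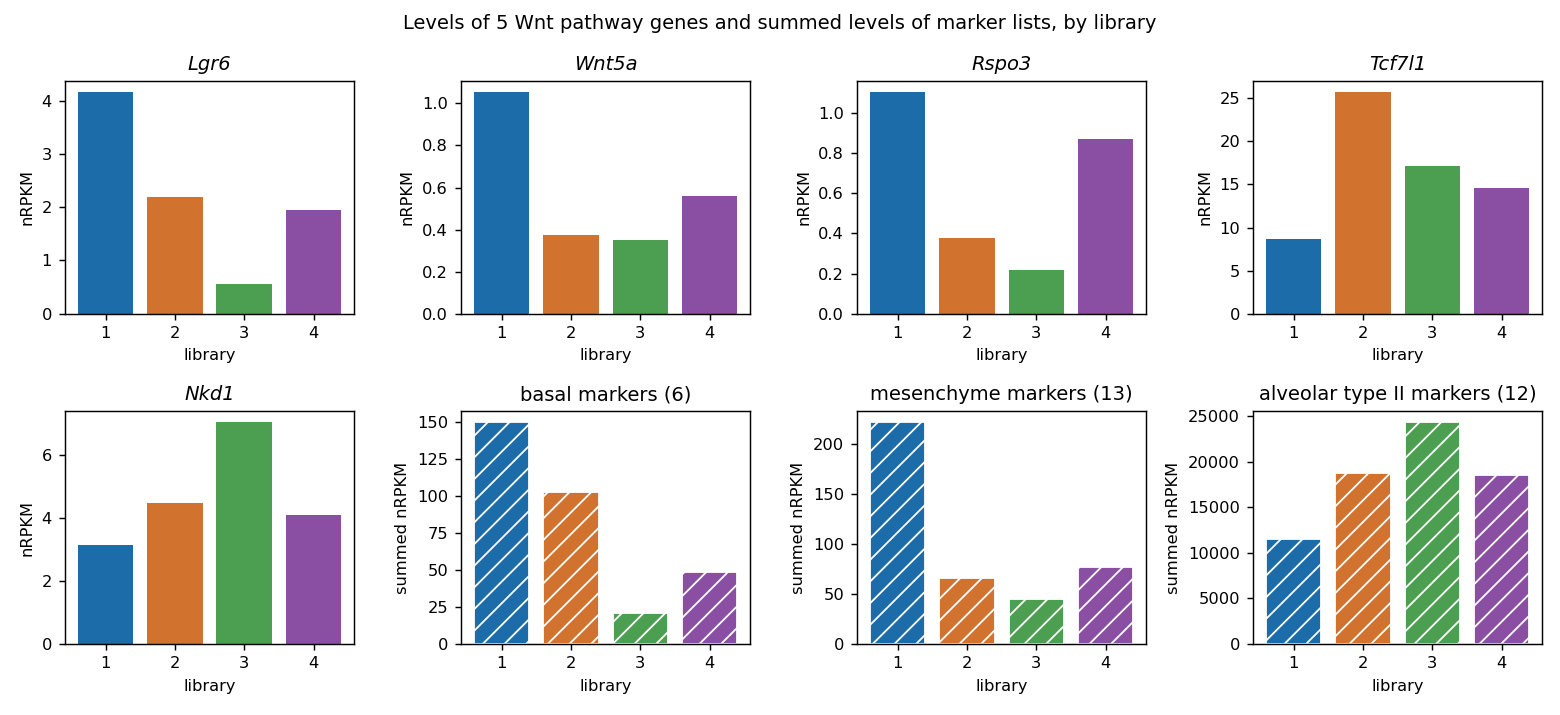
Levels in nRPKM of Lgr6, Wnt5a, Rspo3, Tcf7l1 and Nkd1 in libraries 1 to 4 (solid bars), and summed nRPKM of basal, mesenchymal and alveolar type II markers (hatched bars). Lgr6, Wnt5a and Rspo3 are highest in library 1 and lowest in library 3, like the basal and mesenchymal sums. The mesothelial, endothelial and ciliated marker sums, not drawn, have the same highest and lowest library. For Wnt5a, libraries 2 and 3 are too close to be ordered (0.3735 and 0.3495 nRPKM on 29 and 32 reads). Nkd1 is lowest in library 1 and highest in library 3, like the type II sum, to which Sftpc adds the most. The genes were chosen after their values were seen.

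Many of the genes nevertheless shared their lowest library. The count for library 1 was chosen after the values were seen, so it is a description and not a test. Of the 26 Wnt genes at 1 nRPKM or more in all libraries, 17 (65.4%) were lowest in library 1, against 27.4% of all 10888 genes. These included 5 of 7 frizzled receptors, Lrp5, Lrp6 and Ryk, both ligases and both TCF factors, but neither Wnt7a nor Wnt7b. Their highest library was not shared: it was library 2 for 8 of the 17, library 3 for 5 and library 4 for 4. Fzd7 had 6.12 nRPKM there against 11.8 to 13.7, and Tcf7l1 had 8.65 against 14.6 to 25.7. The median of the 26 genes lay 0.18 below the mean of the 4 libraries in library 1 (deviation -0.18 in log2(nRPKM + 1)), against -0.02 for all genes, and 0.09, 0.07 and 0.04 above it in libraries 2 to 4. In CPM, counts scaled by the library total alone, only 4 of the 26 were lowest in library 1, against 8.38% of all genes, since the median of all genes itself moved to 0.18 there; the Wnt median lay 0.20 below it. The type II markers were lowest in library 1 as well. The basal, mesenchymal, leukocyte, mesothelial, endothelial and ciliated sums were highest there. The part of all these cells in the Wnt levels was not tested.

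**Figure D4:**
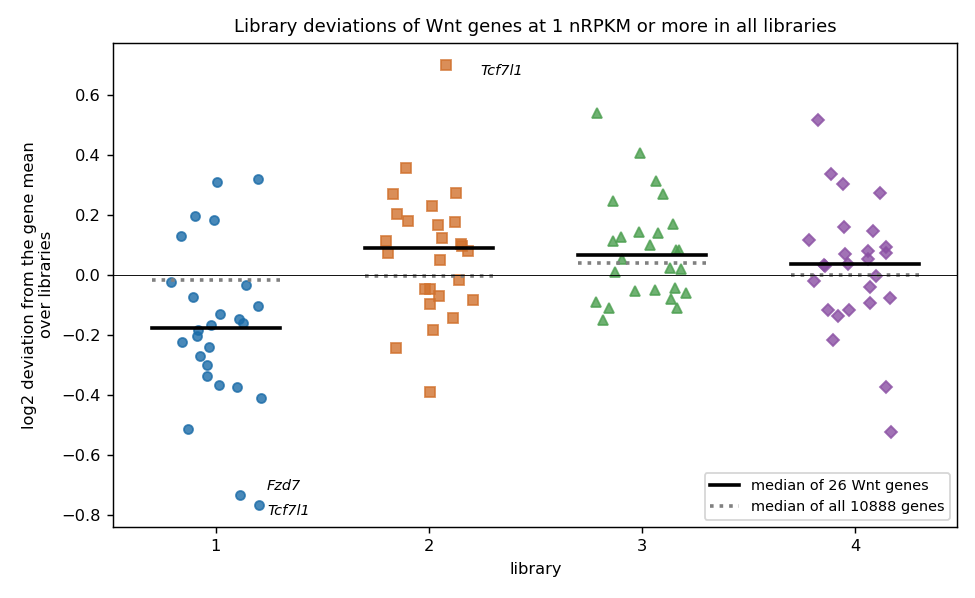
Deviation of each of 26 Wnt genes from its mean over libraries, in log2(nRPKM + 1), in libraries 1 to 4 (points, spread sideways for legibility). Solid bars are the medians of the 26 genes and dotted bars those of all 10888 genes at the same level; in library 1 the Wnt median is -0.18 and that of all genes -0.02, and Tcf7l1 and Fzd7 are lowest.

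Of 105 other genes of the pathway, 63 had at least 1 nRPKM in all libraries, against 38.8% of all genes in the tables. None of the 72 that could be tested was called for spread between libraries (edgeR, with 4 at an unadjusted p under 0.05). Agonists were nearly absent: none of 10 further ligands, agonists and receptors reached a mean of 1 nRPKM. The R-spondin gene Rspo3 was the highest of them with 1.11, 0.376, 0.219 and 0.870 nRPKM, followed by Rspo1 (0.0792 ± 0.0466) and Wnt16 (0.0177 ± 0.0204; SD, n = 4). Rspo3 shared with Lgr6 its highest library (1) and its lowest (3).

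Among 17 further inhibitors and surface modulators, 4 reached 1 nRPKM in all libraries. The share of all genes, for this group and those below, was 38.8%. The glypican genes Gpc4 (9.19 ± 0.83 nRPKM) and Gpc3 (5.57 ± 2.81) and the receptor-like gene Ptk7 (3.72 ± 0.251) were highest. Of 48 further cytosolic and nuclear genes 42 reached 1 nRPKM in all libraries. They were led by Cdh1 (147 ± 15.97 nRPKM), Ctnna1 (123 ± 19.9) and Ctnnd1 (79.2 ± 8.63), which encode E-cadherin and catenins of cell junctions. Polarity and calcium genes numbered 10 of 16, led by the GTPase genes Rac1 (86.5 ± 17.3) and Rhoa (29.8 ± 3.27) and the kinase gene Camk2d (17.4 ± 1.73). Of 14 further target genes 7 did so, led by the cyclin gene Ccnd1 (138 ± 34.5), Id2 (55.1 ± 14.3) and the adhesion receptor gene Cd44 (44.6 ± 2.08), all of which also respond to other pathways (SD, n = 4 throughout).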

How the data were processed

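RNA sequencing of 4 libraries of a single genotype label was used. Each deposited table gives per gene a count of uniquely aligned reads and an RPKM that the authors adjusted by a size factor (nRPKM), per the file headers. GSNAP and mm9 are named in the submitters' processing notes. Their versions, the gene annotation, how strand was used and any filter: not given in the sources used here. Depth was 12133251 to 13591876 counts per library.

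Symbols were matched by Entrez identifier to a RefSeq table of GRCm38.p6 (25035 of 28096 identifiers), and promoter sequences are RefSeq's in that build; identifiers without a symbol took 2.48% to 3.71% of counts. The percent of 50-base words shared with another gene was computed from GENCODE transcripts of GRCm38, on either strand. Genes that overlap at the same place were not left out, so a shared word may still lie at a single place. A level may then be uncertain in which gene its reads were counted for, and not in where they align.

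Logarithms are log2(nRPKM + 1), which understates differences of low genes. Neighbours within a role (means of at least 1 nRPKM) were compared by exact permutation (two-sided sign flips over libraries) with Benjamini-Hochberg adjustment over 23 pairs. Spread was tested on counts of all genes with edgeR 4.0.16 (R 4.3.3; TMM, filterByExpr, intercept only, quasi-dispersion against its trend, Benjamini-Hochberg at 0.05), and the script was tested on simulated data; filterByExpr asks for enough reads in every library. DESeq2 1.42.0 was an alternative. The genes and lists were chosen with earlier results of these data known; all 55 genes are accounted for, and of the other pathway genes the 3 highest of each of 5 groups are named, with others chosen after their values were seen and said to be so. Alternatives were other level and read minimums, scalings, pseudocount, tool, filter and each library left out.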

Additional observations from a re-analysis of the deposited data

Results flagged for a closer look

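Of 39 Wnt genes with at least 10 reads in 2 or more libraries, 2 had a library far from the other 3 by Dixon's criterion for 4 values, which chance alone meets in about 1 in 20 groups. Wls had 36.7 nRPKM in library 4, against 25.8 to 27.1 in the others. Dkk3 had 0.156 nRPKM in library 3, against 0.638 to 0.713, on 11 reads.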

How the results depend on the processing

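No paired comparison of conditions was possible because there is a single group and the labels carry no replicate number. Only neighbour genes were compared in pairs, within each library. Of the counts, 26 genes at 1 nRPKM in all libraries became 32 at 0.5 and 23 at 2 nRPKM, and 26 to 29 with a library left out (29 without library 3, in which Lgr6, Lgr4 and Dvl2 fell below 1). The 38 genes with 10 reads became 45 at 1 read and 34 at 20 reads. No Wnt gene was called variable under any of the 7 alternatives run (other size factors, no filter, DESeq2, each library left out; lowest adjusted p = 0.0623 for Lgr6 with edgeR and no filter). In CPM, which has no length scaling, 6 neighbour pairs changed order: Fzd1 minus Fzd5 was -0.48, Fzd2 minus Fzd3 -0.70, Ryk minus Lrp6 -0.21, Rnf43 minus Znrf3 -0.43, Csnk1a1 minus Gsk3b -1.68 and Gsk3b minus Apc -0.21. With a library left out, Znrf3 minus Lgr6 ranged from -0.0094 to 0.61 and was below 0 without library 3, and Axin1 minus Dvl1 ranged from -0.14 to 0.20 and was below 0 without library 3 and without library 4. In CPM of total counts the Wnt deviations were -0.015, 0.23 and -0.23 in libraries 1, 3 and 4. In the same scaling 4 of 26 genes were lowest in library 1, against 17 with TMM scaling or without mitochondrial genes. That count, its library and its scalings were chosen after seeing the data. Depth limits the 17 genes that had under 10 reads in at least 1 library.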

Other observations

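Among the 105 other pathway genes, 3 besides Rspo3 had an unadjusted p under 0.05 for spread between libraries (edgeR quasi-likelihood dispersion), and none passed the adjustment over all genes; they are named after their values were seen. With Rspo3 these are 4 of the 72 tested, close to the 5.13% of all genes at that p, so the count sets these genes apart from no others. Gpc3, a glypican that binds Wnt ligands and receptors, had 1.58 nRPKM in library 1 against 7.65, 5.598 and 7.44 in libraries 2 to 4 (adjusted p = 0.60, edgeR). Ccn4, a secreted matrix protein and Wnt target, had 0.703, 0.258, 0.0951 and 0.477 nRPKM in libraries 1 to 4, the order of libraries seen for Rspo3 at its ends. Daam2, a formin that binds dishevelled, had 0.235 nRPKM in library 1 against 0.680 to 0.934 in the others. Of the 63 other pathway genes at 1 nRPKM or more in all libraries, 26 (41.3%) were lowest in library 1, against 27.4% of all genes.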
